A study of Mus musculus with 16 samples.

Results

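Mouse genes at human Alzheimer's disease and related dementia risk loci were followed in olfactory bulb microglia as a list of 34 gene symbols. All 34 were found among the 57010 genes of the count table, and 33 reached 5 counts in 8 or more of the 16 libraries, the condition that 18227 genes met. Epha1, an ephrin receptor, was the exception. It had 24 counts in all 16 libraries together (14 of them in WT libraries), none in 5 libraries and at most 5 in any library. The list is of risk genes expressed in microglia, named by their human loci, and its rule uses no difference between the groups. Its members were, however, chosen with earlier results of these data known, so counts over the list describe the list.

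Total RNA was sequenced from cells that CD11b magnetic beads captured from the olfactory bulb of mice aged 2 months. WT mice were C57BL/6J animals. APP-NL-G-F mice carry App knock-in alleles with the Swedish, Arctic and Iberian changes in every cell that expresses App, so the microglia and the surrounding neurons share the alleles. No further treatment was given, and each genotype had 4 female and 4 male libraries (sex read from f and m in the sample names). The labels do not say whether each library came from 1 mouse, so p-values measure the spread between libraries.

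Variants at these loci shift the risk of late-onset disease, and many of the genes act in microglia. They centre on a few processes: TREM2 and TYROBP form a lipid-sensing receptor complex that signals through SYK and phospholipase C gamma 2, inhibitory receptors and the lipid phosphatase SHIP1 restrain it, and other risk genes serve endocytosis, lysosomal breakdown and cholesterol export. PU.1, the product of Spi1, is a transcription factor of the myeloid lineage that many microglial genes depend on.

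Library totals lay between 9052932 and 18117286 counts (median 11926833) with no difference between WT and APP-NL-G-F larger than their spread (genotype labels exchanged within sex in an exact permutation test of 4900 splits, two-sided p = 0.936). Levels are given as CPM, counts per 1e+06 of the library total scaled by TMM (trimmed mean of M-values) normalization, and 3 counts, the limit that a count of 0 allows, correspond to 0.169 to 0.347 CPM. The microglial label was borne out by 10 of 10 microglial markers, whose summed level was 18268 to 21728 CPM in WT libraries and 18290 to 21439 CPM in those of the knock-in. Markers of other cell types were present at lower sums, 383 to 541 CPM in WT against 489 to 730 CPM in APP-NL-G-F for 10 neuron markers and 736 to 1570 CPM against 679 to 1084 CPM for 10 astrocyte markers. The neuron score, the mean log2 CPM of its markers, averaged 4.64 ± 0.10 across the WT libraries and 4.92 ± 0.17 across those of the knock-in (SD, n = 8 each), higher by 0.28 in the knock-in (exact permutation, two-sided p = 0.00163). Scores of oligodendrocyte and oligodendrocyte precursor markers were higher by 0.43 (p = 0.0245) and 0.28 (p = 0.0208) in the same exact permutation test, whereas the microglial score differed by 0.01 (p = 0.716). The T and NK cell list had no marker past the count filter, and Ms4a1 and Pax5 of the B cell list were at 0 in 11 libraries each. In bulk RNA, fewer cells of a type and less RNA per cell cannot be told apart.

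The risk genes were mostly strongly expressed, which the choice of genes expressed in microglia favours. Together they took 1.12% to 1.31% of the counts of a library. Of the 33, 31 averaged at least 10 CPM and 22 at least 100 CPM. Per kb of the canonical transcript, 18 stood above 90% of 17815 ranked genes, where the median gene had 3.45 CPM per kb. Apoe, the main lipid carrier of the brain, led at 1647 CPM per kb (rank 16). Tyrobp followed at 518 and Grn at 429, then Trem2 at 280 and Inpp5d at 182 CPM per kb. The place of Trem2 rests on the length used: per kb of all annotated exons it had 61.6, below Inpp5d at 111, Abca1 at 98.2 and Picalm at 63.3 CPM per kb. Neighbours in this order were often not separable: Picalm at 121 and Abca1 at 117 CPM per kb overlapped from library to library, as did Mef2c at 78.2 and Cd33 at 74.4 CPM per kb. At the low end Treml2 had 3.62, Scimp 1.205 and Slc24a4 0.28 CPM per kb, and Slc24a4 ranked 16546.

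**Figure D1:**
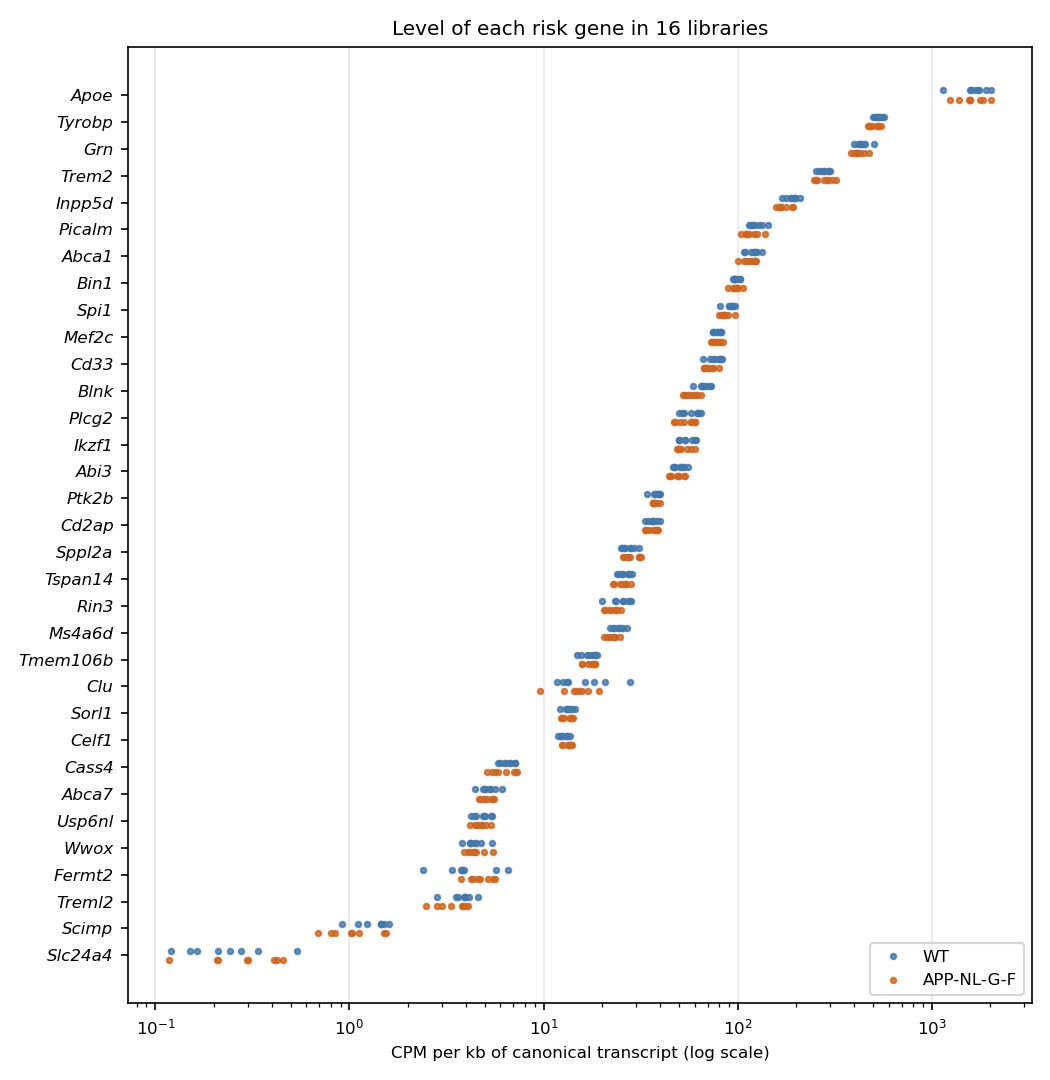
Level of each of the 33 risk genes in each of 16 libraries, in CPM per kb of canonical transcript on a log scale, with WT libraries (blue) drawn above APP-NL-G-F libraries (orange). Apoe stood highest at a mean of 1647 and Slc24a4 lowest at 0.28 CPM per kb, and the genotypes overlapped for every gene.

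The levels were also even across libraries. The median SD of log2 CPM within groups was 0.12 for the risk genes, against 0.24 for all tested genes and 0.12 for tested genes of at least 10 CPM. Bin1, an adaptor that shapes endocytic membranes, was the steadiest at a within-group SD of 0.05 (496 to 588 CPM over 16 libraries). Ptk2b followed at 0.06 and Mef2c at 0.07. Apoe varied more, with an SD of 0.24 and levels from 2504 to 4405 CPM. Clu at 0.28 and Fermt2 at 0.29 were the most variable genes above 10 CPM, and the sparsely counted Scimp and Slc24a4 reached 0.33 and 0.50.

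Whether the knock-in changed these genes was tested in all 18227 genes with edgeR's quasi-likelihood test, with genotype and sex as additive terms. None of the 33 passed a Benjamini-Hochberg false discovery rate (FDR) below 0.1 together with an absolute log2 fold change above 0.5, a rule that called 8.64% of all tested genes. At the FDR alone, 2 of 33 (6.06%) passed, against 14.8% of all tested genes and 14.2% of those of at least 10 CPM. Both were lower in APP-NL-G-F: Blnk and Inpp5d. At an unadjusted p under 0.05 the count was 4 (12.1%, against 24.1% of all tested genes), all with lower means in APP-NL-G-F, with Rin3 and Ms4a6d added. The changes were small throughout. The 95% interval of the log2 fold change lay within 0.5 of 0 for 30 of the 33 genes and within 0.25 for 25, and the exceptions at 0.5 were Fermt2, Scimp and Slc24a4. No gene had genotypes that did not overlap, against 1.29% of all tested genes.

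Estimates were below 0 in 26 of the 33 genes (78.8%), against 50.4% of all tested genes and 58.6% of those of at least 10 CPM. Their median log2 fold change was -0.05, beside -0.001 over all tested genes and -0.02 over those of at least 10 CPM. That count describes the list, and for all but 4 of the 33 genes the 95% interval of the estimate spanned 0. It was 22 with upper quartile scaling, which moved the median of all genes by 0.01.

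**Figure D2:**
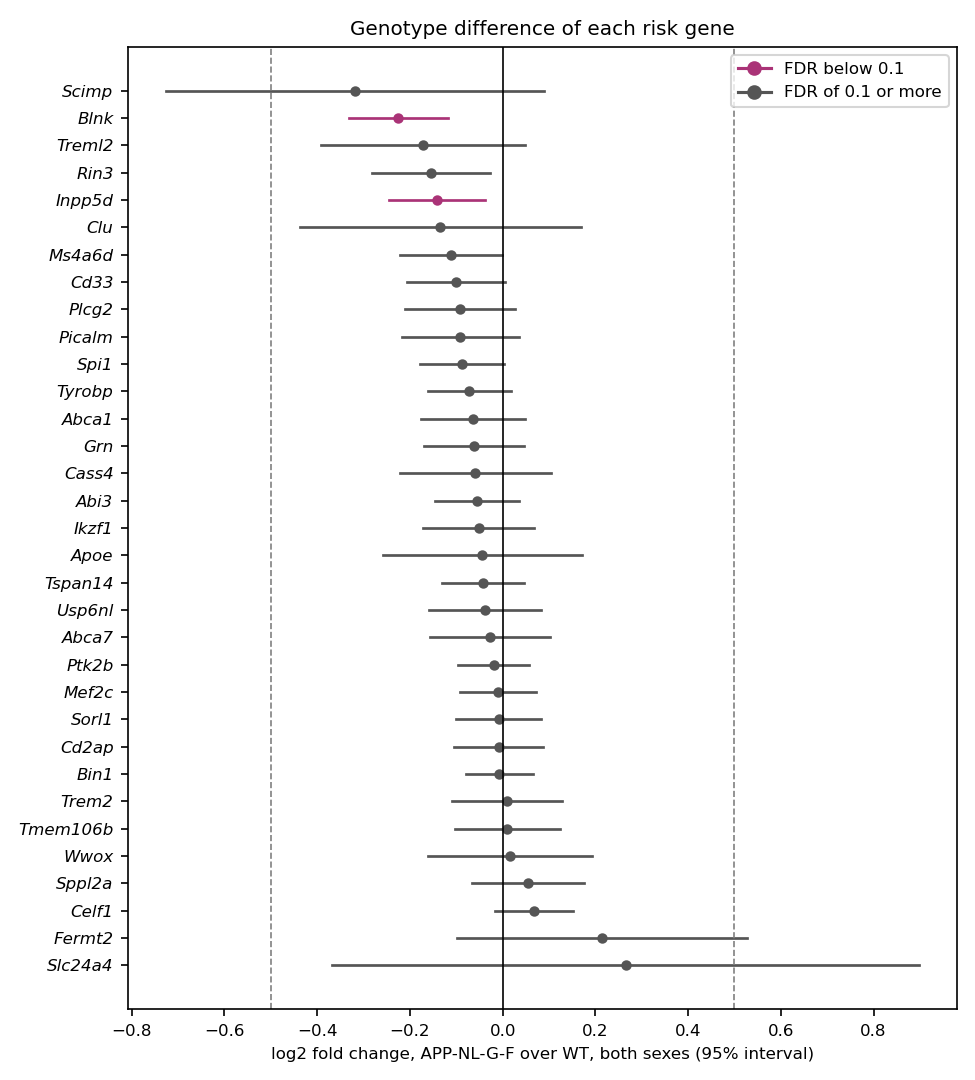
Log2 fold change of APP-NL-G-F over WT for each risk gene over both sexes (points) with its 95% interval (lines), and dashed lines at the threshold of 0.5 in either direction. Blnk and Inpp5d (purple) had an FDR below 0.1, and no point lay beyond 0.5.

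The 2 genes that passed the FDR were among the 10 receptors and their signalling partners, beside 14.8% of all tested genes. The other roles held 2 to 6 tested genes each. These counts are too small to show a concentration in any role. Blnk encodes B cell linker, a scaffold that SYK phosphorylates and that brings phospholipase C gamma 2 to activated receptors. In females its level was 151, 141, 153 and 138 CPM in the WT libraries and 130, 117, 114 and 122 CPM in the APP-NL-G-F libraries. In males it was 123, 140, 145 and 136 CPM in WT and 111, 110, 135 and 126 CPM in APP-NL-G-F. Every APP-NL-G-F female lay below every WT female, whereas the males overlapped, and all 8 APP-NL-G-F libraries lay below the WT median of 140 CPM. The females were apart for Spi1 too, at 188 to 197 CPM in WT and 164 to 182 CPM in APP-NL-G-F. For Celf1 they were apart with APP-NL-G-F higher, at 98.4 to 106.4 CPM in WT and 106.6 to 111.6 CPM in APP-NL-G-F. The shares of all tested genes with females apart, or with all 8 APP-NL-G-F libraries below the WT median, were not computed. These separations describe the libraries and are no result about these genes. Blnk averaged 141 ± 9.44 CPM in WT libraries and 121 ± 9.12 CPM in those of the knock-in (SD, n = 8 each). Its log2 fold change was -0.22 (SE 0.05, 95% interval -0.33 to -0.12, edgeR FDR 0.0098). Among replicates 1 and 2 of each group the log2 fold change was -0.26 (edgeR FDR 0.013). Among replicates 3 and 4 it was -0.20 (FDR 0.34). Leaving out each library in turn kept the FDR below 0.1 in 16 of 16 fits. All these fits reuse the libraries that picked Blnk, so they are no independent support.

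Inpp5d encodes SHIP1, the phosphatase that removes the PI3-kinase product downstream of TREM2. WT libraries held 837 to 1032 CPM with a median of 948 CPM, and APP-NL-G-F libraries 775 to 948 CPM with a median of 825 CPM. All 8 APP-NL-G-F libraries lay below the WT median, but the ranges overlapped. The log2 fold change was -0.14 (SE 0.05, 95% interval -0.24 to -0.04; edgeR FDR 0.079). This call was less stable. It was kept in 5 of 16 fits that left out a library, and the log2 fold change was -0.20 among replicates 1 and 2 of each group and -0.08 among replicates 3 and 4. Counts of risk genes past the FDR ran from 1 to 5 when libraries were left out. Leaving out APP-NL-G-F male replicate 3 gave 5, with Rin3, Spi1 and Plcg2 joining at log2 fold changes of -0.17, -0.11 and -0.12. The count over all genes then rose from 2692 (14.8%) to 4027 (22.1%). Leaving out WT male replicate 3 gave 4, with Rin3 and Spi1 added, and 2750 (15.1%) over all genes. The count of risk genes was 1 without any of 11 other libraries: WT female replicates 1, 2 and 3, WT male replicates 2 and 4, the APP-NL-G-F female replicates 2, 3 and 4, and APP-NL-G-F male replicates 1, 2 and 4. Over all genes those 11 fits gave 1702 to 2642 (9.34% to 14.5%), so the fall was shared by the whole set of genes.

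The neuron score, which differed between the genotypes, also bore on these calls. With it as a covariate no risk gene passed the FDR, and 16 of 18227 genes (0.0878%) did. The estimate for Blnk was then -0.11 (edgeR FDR 0.66) and that for Inpp5d -0.01 (FDR 0.97), and 20 of the 33 genes changed sign, none of them past the FDR in either fit. The covariate and the genotype overlap, and the part of neuronal RNA in either difference was not tested beyond that fit.

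**Figure D3:**
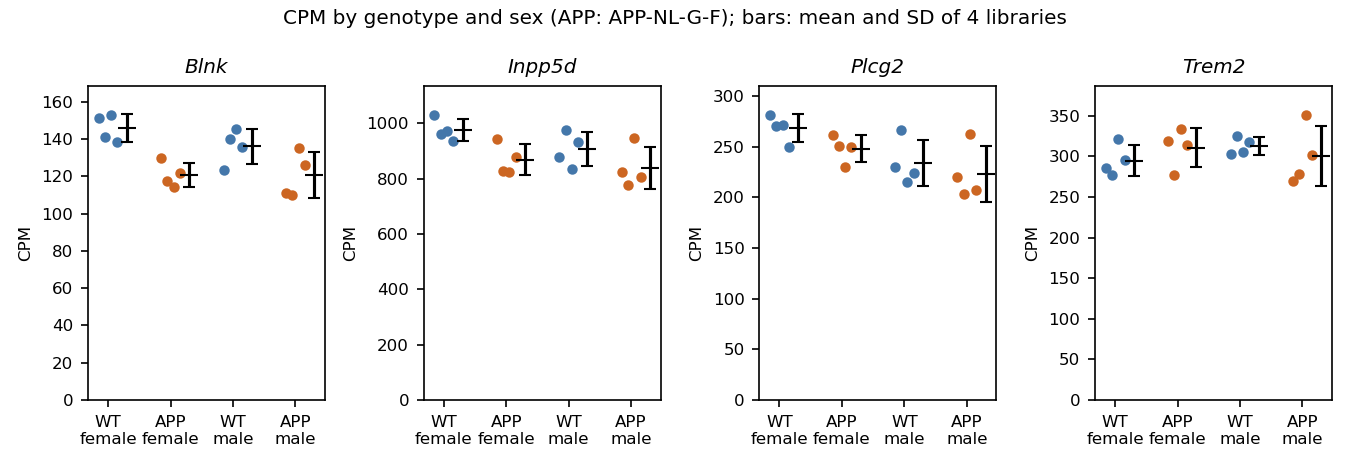
CPM of Blnk, Inpp5d, Plcg2 and Trem2 in each library by genotype and sex, with the mean and SD of the 4 libraries of each group beside the points, on axes that start at 0. Blnk and Inpp5d means were lower in APP-NL-G-F of either sex, while Trem2 averaged 304 CPM over the 8 WT libraries and 306 CPM over the 8 of the knock-in.

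The promoter sequences of this pair are shown because they were the genes past the FDR and because PU.1 is itself on the list. A RefSeq table held 33 promoters for 24 of the 34 genes. The letters AGGAAGT, which occur in sites that PU.1 and other ETS factors bind, were searched on either strand of the 250 bases before each start. The letters were chosen after the calls were known. They occurred in 7.69% of 32851 promoters and in 2 of 33 (6.06%) risk gene promoters, those of Inpp5d and Blnk, so the list holds them about as often as promoters in general. The longer GAGGAAGT, which contains the first motif, occurred in 2.44% of all promoters and in the Inpp5d promoter alone among the 33. Each 30-base stretch below was located in GRCm39 by an exact match, reads 5′ to 3′ on the strand of the gene, and has the match in capitals. The Inpp5d stretch is at chr1:87548003-87548032 on the plus strand, with the 7-letter match starting 19 bases before the RefSeq start. The Blnk stretch is at chr19:40982849-40982878 on the minus strand, 202 bases before the RefSeq start. Both lie in exons of the GENCODE models, whose starts are further upstream. A match is a string of letters and no evidence of binding.
Inpp5d: gtttctataatGAGGAAGTtctgtgcagct
Blnk: tttgggacaaacAGGAAGTagtgctcagtc

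The other receptor genes did not pass the FDR for genotype. Trem2 (chromosome 17, 48653429 to 48661175) had 277 to 325 CPM with a median of 304 in WT, and 270 to 351 CPM with a median of 308 in APP-NL-G-F. Its log2 fold change was 0.01 with a 95% interval of -0.11 to 0.13, so a change of the size that the study's rule calls lay outside the interval. Tyrobp, the adaptor that TREM2 signals through, had medians of 321 and 309 CPM in the same order, and a log2 fold change of -0.07 (interval -0.16 to 0.02). Plcg2, the phospholipase of this pathway, had medians of 258 and 240 CPM and a log2 fold change of -0.09 (interval -0.21 to 0.03). Cd33, an inhibitory sialic acid receptor, had medians of 450 and 407 CPM and a log2 fold change of -0.10 (edgeR FDR 0.23).

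Ms4a6d, of a family of membrane-spanning proteins whose human locus is linked to soluble TREM2, had 31.1 to 38.1 CPM in WT and 29.0 to 35.2 CPM in APP-NL-G-F (log2 fold change -0.11, edgeR FDR 0.20). It has close family copies, so reads may have been split or lost between them. Abi3, an actin regulator, had medians of 207 and 198 CPM, and its exons overlap those of Zfp652, Phospho1 and Gngt2 on the opposite strand. The strand setting of the counts was not given in the sources used here, so reads of such partners cannot be told apart. Treml2, which lies 33867 bases from Trem2, had medians of 18.1 and 16.5 CPM. Scimp, an adaptor of Toll-like receptor signalling, had medians of 1.62 and 1.15 CPM, and its log2 fold change of -0.32 had an interval of -0.73 to 0.09, too wide at this depth to show a change of that size.

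Among the transcription and RNA-binding genes, 3 of 4 estimates were below 0 and none passed the FDR. Spi1 had 165 to 197 CPM with a median of 189 in WT and 164 to 196 CPM with a median of 173 in APP-NL-G-F. Its log2 fold change was -0.09 (SE 0.04, edgeR FDR 0.22). Mef2c, a factor that restrains microglial inflammatory responses, had medians of 561 and 554 CPM and a log2 fold change of -0.01 (interval -0.09 to 0.07). Ikzf1, a zinc finger factor of blood cell lineages, had medians of 319 and 300 CPM. Celf1, an RNA-binding protein whose gene lies 62719 bases from Spi1 on chromosome 2 and shares its human association signal, had medians of 103 and 108 CPM and a log2 fold change of 0.07, opposite in sign to Spi1.

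The endocytosis and endosome sorting genes had 6 of 6 estimates below 0, from -0.15 to -0.01, and none passed the FDR. The signs of Bin1, Cd2ap and Sorl1 turned with upper quartile scaling. Rin3, a guanine nucleotide exchange factor for RAB5 that binds BIN1, came closest. Its WT libraries held 78.1 to 110 CPM with a median of 99.9, and its APP-NL-G-F libraries 80.1 to 97.3 CPM with a median of 88.6. All APP-NL-G-F libraries lay below the WT median, as for Blnk and Inpp5d, a pattern whose share over all tested genes was not computed. The log2 fold change of Rin3 was -0.15 (SE 0.06, edgeR FDR 0.12). Picalm, a clathrin assembly protein, had medians of 1010 and 942 CPM and a log2 fold change of -0.09. Bin1, Cd2ap and Sorl1, the last a sorting receptor that steers APP out of endosomes, had log2 fold changes of -0.01 each. Usp6nl, a RAB5 GTPase-activating protein, had one of -0.04, and its exons overlap 1700014B07Rik on the opposite strand.

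Of the lipid carriers and transporters, none passed the FDR. Apoe had 2504 to 4405 CPM with a median of 3711 in WT and 2701 to 4390 CPM with a median of 3452 in APP-NL-G-F. The log2 fold change of Apoe was -0.04 with an interval of -0.26 to 0.17. Abca1, which loads cholesterol onto apolipoprotein E, had medians of 1247 and 1190 CPM, and its relative Abca7 34.8 and 34.0 CPM. Both had small differences, at log2 fold changes of -0.06 and -0.03. Clu, the apolipoprotein J gene, is described with the sexes.

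For the lysosomal and membrane protease genes the signs were mixed. Grn, the precursor of lysosomal granulins, had medians of 1011 and 960 CPM, WT first, and a log2 fold change of -0.06 (interval -0.17 to 0.05). It shares 1273 exonic bases with Fam171a2 on the opposite strand. Tmem106b, a lysosomal membrane protein, had medians of 107 and 109 CPM. Sppl2a, an intramembrane protease, and Tspan14, a tetraspanin that escorts ADAM10, had log2 fold changes of 0.06 and -0.04. Of the adhesion and scaffold genes none passed the FDR for genotype: Ptk2b, a focal adhesion kinase, had medians of 172 and 166 CPM, and Cass4, a docking protein, 31.6 and 29.4 CPM. Ptk2b shares 3031 exonic bases with Chrna2 on the opposite strand. Wwox and Slc24a4, which fit none of these roles, had log2 fold changes of 0.02 and 0.27, the latter with an interval of -0.37 to 0.90.

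Within females, tested in a fit of the 4 groups, no risk gene passed the FDR and fold rule, which called 7.15% of all tested genes. Blnk alone passed the FDR (9.42% of all tested genes did), at 146 ± 7.46 CPM in WT females and 121 ± 6.63 CPM in APP-NL-G-F females (SD, n = 4 each), with a log2 fold change of -0.27 (edgeR FDR 0.034). It missed the FDR without WT female replicate 1 (FDR 0.12), WT female replicate 3 (0.101) or APP-NL-G-F female replicate 3 (0.11). Within males none was called, where 0.252% of all tested genes were, and the log2 fold change of Blnk was -0.18 (edgeR FDR 0.36). The difference between the sexes was not shown: the interaction called none of the risk genes and 0.0274% of all tested genes. Counts at an unadjusted p under 0.05 were 5 in females (15.2%, against 20.8% of all tested genes), 3 in males (9.09% against 11.7%) and 2 in the interaction (6.06% against 5.94%). The 5 were Blnk, Clu, Spi1, Rin3 and Inpp5d, all lower in APP-NL-G-F, the 3 were Fermt2 (higher), Blnk and Tyrobp, and the 2 were Clu and Fermt2.

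Clu and Fermt2 are given by sex as the genes with the smallest interaction p, neither of them past the FDR. Slc24a4 had a larger interaction estimate, 0.92, with an interval of -0.31 to 2.15. Clu, mainly a product of astrocytes in brain, had 37.5, 50.4, 32.98 and 29.7 CPM in WT females and 30.6, 27.6, 25.9 and 23.3 CPM in APP-NL-G-F females. In males it had 21.2, 23.9, 22.9 and 24.2 CPM in WT and 26.8, 28.5, 17.5 and 35.0 CPM in APP-NL-G-F. The females overlapped only between WT replicate 4 and APP-NL-G-F replicate 1, and the males overlapped with the knock-in spread on both sides of WT. The log2 fold change was -0.48 in females (edgeR FDR 0.11) and 0.23 in males (FDR 0.64), with an interaction of -0.71 (SE 0.24, edgeR FDR 0.59).

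Fermt2 encodes kindlin-2, an integrin activator. It had 20.01, 23.01, 13.3 and 13.3 CPM in WT females and 15.1, 16.1, 18.1 and 14.9 CPM in APP-NL-G-F females. WT males held 11.8, 8.38, 13.7 and 13.2 CPM and APP-NL-G-F males 19.1, 19.8, 13.2 and 16.4 CPM. The WT males had the lowest mean, 11.8 CPM, and their range also held WT female replicates 3 and 4 and APP-NL-G-F male replicate 3. The log2 fold change was -0.11 in females and 0.56 in males (edgeR FDR 0.24), with an interaction of -0.67 (FDR 0.70). Leaving out a library brought each gene past the rule in a single sex, Clu in females without WT female replicate 4 (-0.55, FDR 0.059) and Fermt2 in males without APP-NL-G-F male replicate 3 (0.67, FDR 0.080).

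Female against male, over both genotypes, called none of the risk genes and 0.0604% of all tested genes. At an unadjusted p under 0.05 were 4 genes (12.1%, against 6.56% of all tested genes), Clu, Plcg2, Tspan14 and Abi3, all higher in females, by 0.35, 0.17, 0.12 and 0.11 on the log2 scale (edgeR FDR 0.70 to 0.73).

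**Figure D4:**
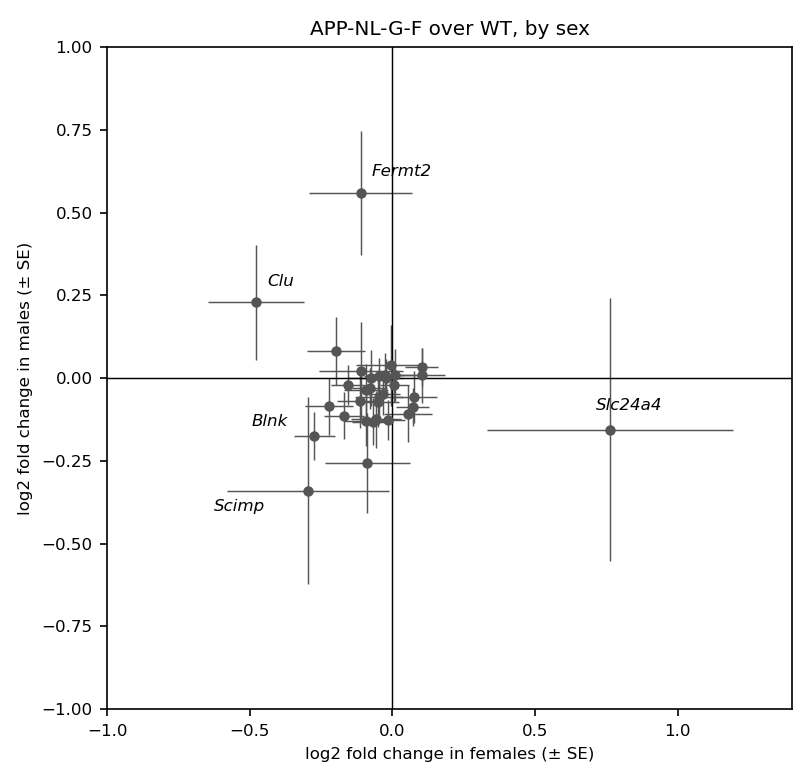
Log2 fold change of APP-NL-G-F over WT for each of the 33 risk genes in females (horizontal) and males (vertical), with SE as lines. Clu lay at -0.48 and 0.23 and Fermt2 at -0.11 and 0.56, while most genes lay close to 0 on either axis and the sparsely counted Slc24a4 and Scimp had long error lines.

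Whether the risk genes moved with the RNA of other cells was then asked within the 4 groups, so that neither genotype nor sex enters. Each gene was fitted with edgeR against a marker score with group as a factor, on all 18227 genes. Of the 33, 9 moved with the neuron score at an FDR below 0.1 (27.3%, against 16.9% of all tested genes), and all 9 were lower in libraries with a higher score. Of all tested genes, 2035 rose with the score and 1043 fell. The median change per unit of score was -0.33 over the 33 risk genes and -0.04 over all tested genes. Over the 10 microglial markers it was -0.30, with 1 of them past the FDR, so the lean was not particular to the risk genes. Among the risk genes Plcg2 had the smallest p, at -0.68 in log2 CPM per unit of score (SE 0.15, edgeR FDR 0.0095). Grn followed at -0.59 (SE 0.14, FDR 0.016). The others were Tyrobp at -0.40, Inpp5d at -0.46, Picalm and Sppl2a at -0.54, Ikzf1 at -0.54, Rin3 at -0.52 and Ms4a6d at -0.50. Blnk had -0.41 (SE 0.17, edgeR FDR 0.14). The count rests on few libraries: leaving out WT male replicate 2 gave 1, leaving out replicate 2 or replicate 3 of the APP-NL-G-F males gave 2, and leaving out APP-NL-G-F female replicate 3 gave 3. Over all genes these fits gave 1309, 2298, 1181 and 2361 in the same order, against 3078 with all libraries. The fall was thus not particular to the risk genes. WT male replicate 2 had the lowest neuron score (4.47) and the highest total count.

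Against the astrocyte score, 1 risk gene passed the FDR, and 0.636% of all tested genes did. It was Clu, which rose by 0.74 in log2 CPM per unit of score (SE 0.14, edgeR FDR 0.022). The astrocyte score ranged over 1.34 log2 units among the 16 libraries, and differed by -0.20 in the knock-in, less than its spread (exact permutation p = 0.255). WT female replicate 2 had the highest Clu level, and without it no risk gene passed (Clu at 0.67, FDR 0.26). Fermt2 joined Clu without APP-NL-G-F female replicate 3 (0.76, FDR 0.073) or APP-NL-G-F male replicate 4 (0.81, FDR 0.082). Fermt2 was the single gene that passed against the endothelial cell score (0.543% of all tested genes passed), rising by 0.70 per unit (SE 0.15, edgeR FDR 0.072). That call held in 4 of 16 fits, those that left out replicate 1 of the WT males, replicate 3 of the knock-in females, or replicate 1 or 4 of the knock-in males. No risk gene moved with the oligodendrocyte score, where 0.11% of all tested genes did, or with the border macrophage score, where 0.0329% did. Without APP-NL-G-F male replicate 3, Clu moved with the oligodendrocyte score (0.59, FDR 0.067). At an unadjusted p under 0.05, the counts were 2 for the oligodendrocyte and 0 for the border macrophage score.

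**Figure D5:**
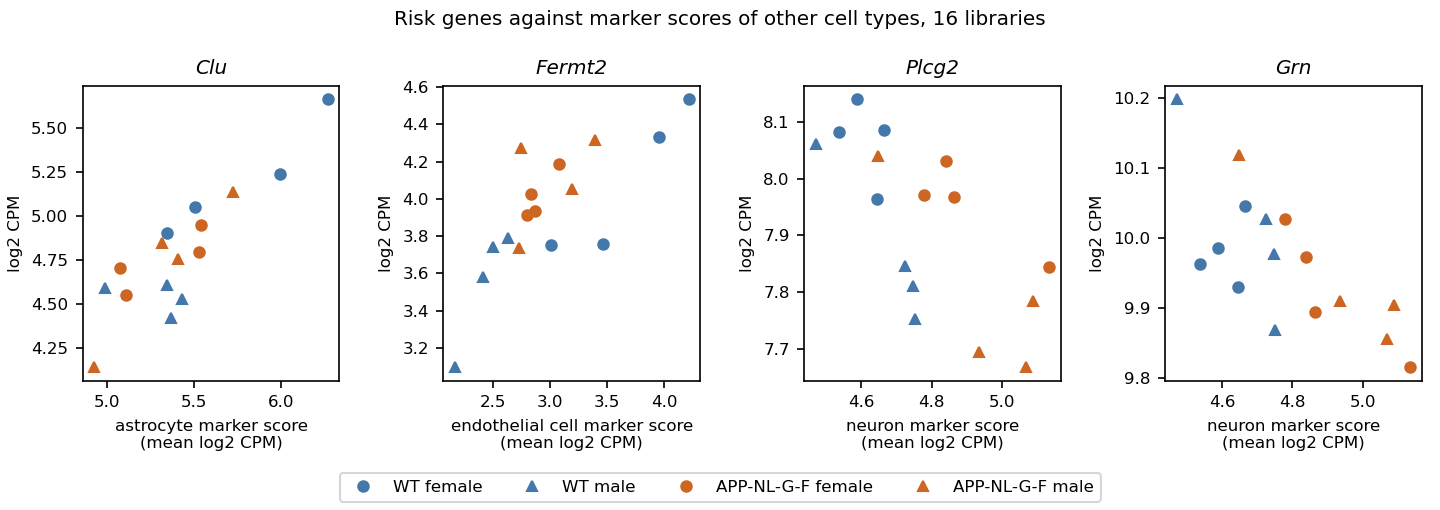
Log2 CPM of Clu, Fermt2, Plcg2 and Grn (vertical) against the score of astrocyte, endothelial cell or neuron markers in the same library (horizontal, mean log2 CPM of the list), for 16 libraries coloured by genotype and shaped by sex. Clu and Fermt2 were high where the score was high, and Plcg2 and Grn were low where the neuron score was high.

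Other genes of the same pathways were read from lists that do not overlap the risk genes. These lists were chosen with earlier results of these data known, so their counts describe the lists and are no independent support. Of 30 genes of TREM2 receptor signalling, none was called over both sexes, 4 passed the FDR (13.3%, near the 14.8% of all tested genes) and all 4 were lower in APP-NL-G-F. These were Bcl10, which links immune receptors to NF-kB (log2 fold change -0.36, edgeR FDR 0.0027), the adaptor Lcp2 (-0.22), the kinase Prkcd (-0.20) and the PI3-kinase subunit Pik3cd (-0.19). Estimates were below 0 in 25 of the 30 (83.3%, against 50.4% of all tested genes and 58.6% of those of at least 10 CPM), with a median of -0.10. None of 6 tested genes of the MS4A family and none of 3 TREM-like neighbours of Trem2 passed. Of 14 other myeloid transcription factors, 3 passed the FDR (21.4%, against 14.8%), all lower: Cebpa and Cebpb at -0.41 each and Runx1 at -0.20.

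Among 19 further genes of lipoprotein and lipid handling, Lrp8, an apolipoprotein E receptor, was called higher at 0.53 (edgeR FDR 0.028), with Lpl at 0.37 and Nr1h2 at -0.14 past the FDR alone (3 of 19, 15.8%). Of 20 endocytosis genes, Amph, a BIN1 relative of nerve terminals, alone passed the FDR, at 0.36. Of 44 genes at other Alzheimer risk loci, Nck2 (0.50), Doc2a (0.76) and Ank3 (0.56) were called higher and Adamts1 (-1.07, edgeR FDR 0.0045) lower. These 4 are 9.09% of the list, near the 8.64% of all tested genes, and with Rhoh, Eed and Ica1 7 of the 44 (15.9%) passed the FDR alone. In 22 of the 44 the estimate was below 0. Nck2 averaged 5.56 CPM and only just passed the fold rule (0.504, edgeR FDR 0.069), and Doc2a averaged 0.92 CPM. Doc2a and Ank3 are expressed in neurons, and neuron markers were higher in the same libraries: 6 of 10 passed the FDR, with a median log2 fold change of 0.37. Their part in these calls was not tested.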

How the data were processed

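The authors aligned paired-end reads of a stranded total RNA kit with STAR to GRCm39 with a human App sequence added, and deposited raw counts per gene with 1 column per library. All 16 columns matched a sample, and no 2 libraries held the same counts. A gene was kept if 8 or more libraries held 5 or more counts of it. Counts were scaled by TMM and tested with edgeR 4.0.16 in R 4.3.3 (glmQLFit, glmQLFTest), with Benjamini-Hochberg FDR over 18227 genes. The rule for a call was an FDR under 0.1 with a log2 fold change beyond 0.5 in either direction. Log2 CPM carries a prior count of 2. Marker scores and totals were compared by exact permutation of genotype within sex. The procedure was tested on simulated data. DESeq2 1.42.0 and limma 3.58.1 were alternatives. Lengths and positions came from a GENCODE annotation of GRCm39 later than that of the authors, which matched 96.8% of genes. Every listed gene past the count filter is described, and of other lists the genes called or past the FDR, at most 4 a list except for the 44 genes at other risk loci. The members and lists were chosen with earlier results of these data known.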

Additional observations from a re-analysis of the deposited data

Results flagged for a closer look

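In each group of 4 libraries, the gap between the most extreme library and its nearest neighbour was compared with the range of the group. Of 180 such groups, for 33 genes, the library totals and 11 marker scores, 9 stood apart by Dixon's 95% criterion, as many as the 9 that chance gives at 1 in 20. Tyrobp was lowest in APP-NL-G-F female replicate 3, at 285 CPM against 319 to 320 CPM in the other APP-NL-G-F females (gap over range 0.974). Ptk2b was highest in APP-NL-G-F male replicate 3 at 179 CPM against 165 to 167 CPM (0.858), and Ikzf1 was highest in the same library at 342 CPM against 289 to 296 CPM (0.879). Tmem106b was lowest in APP-NL-G-F male replicate 4 at 96.1 CPM against 111 to 113 CPM (0.853). Scimp was lowest in WT male replicate 3 at 1.23 CPM against 1.63 to 1.69 CPM (0.863). The microglial score was highest (0.933) and the neuron score lowest (0.907) in WT male replicate 2, the library without which 1 risk gene moved with the neuron score. The border macrophage score was highest in WT female replicate 1 (0.871) and the monocyte score highest in WT male replicate 1 (0.932).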

How the results depend on the processing

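Of 1149 recomputed values of single genes 64, in 24 genes, changed sign, none of them past the FDR in either fit; 20 of these were under the neuron covariate and 4 under upper quartile scaling. The count of risk genes called over both sexes was 0 in every setting run. Of risk genes past the FDR over both sexes, 1 was left with upper quartile scaling, 1 without the count filter, 1 at an FDR of 0.05 and 0 with the neuron covariate, and the count ran from 1 to 5 with a library left out. Over all genes the counts were 2679, 3001, 1638 and 16 in the same order, against 2692 in the main fit. They ran from 1702 to 4027 with a library left out. Blnk stayed past the FDR in 11 of 12 settings and Inpp5d in 9 of 12. Without the count filter 1 risk gene was called in males (Fermt2, 0.57, FDR 0.0016) and 2 in the interaction (Clu at -0.70 and Fermt2 at -0.67), where the genes called in all rose to 880 and 470, from 46 and 5, and the cause was not tested. A fold threshold of 0.25 called 1 gene in females, Blnk. With additive terms for genotype and sex in place of the 4 groups, 2 risk genes moved with the astrocyte score and 2 with the endothelial cell score (Clu and Fermt2 in each), and 1 with the oligodendrocyte score (Clu). With a library left out, counts ran from 0 to 1 in females and in males, 1 to 9 for the neuron score, 0 to 2 for the astrocyte score, 0 to 1 for the oligodendrocyte score and 0 to 1 for the endothelial cell score. Over all genes they ran from 594 to 2110 in females, 5 to 603 in males and 1181 to 3180 for the neuron score. For the astrocyte, oligodendrocyte and endothelial cell scores they ran from 36 to 154, 4 to 314 and 14 to 130. Deviations from the group means correlated at r from -0.33 to 0.29 over 24 pairs of same-numbered libraries of different groups (median 0.03). Over 72 pairs with different numbers r ran from -0.31 to 0.45 (median -0.03). These ranges cannot settle whether the numbers pair the samples. With a replicate block the count past the FDR was 2 and no risk gene was called. A term for replicates 1 and 2 against 3 and 4 gave the same for the risk genes. With that term all genes past the FDR rose from 2692 to 3020, and all genes called in males from 46 to 141. Depth limited Scimp and Slc24a4, at about 1 CPM or less.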
